A study of Mus musculus with 6 samples.

Results

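The transcripts described are those of 37 genes that interferons induce in mouse cells, the interferon-stimulated genes. They were chosen by name for what is known of them, not by their signal on these arrays. A probe with a RefSeq accession of the gene was found for 33 of the 37, and 31 were tested, among 23082 genes tested in all. Mx1, Mx2, Ddx60 and Ifi205 were not analysed here. Irf7 was not well above background on any array and Tap1 on 1 array, so neither was tested. The number of tested members that were well above background on all 6 arrays was 28.

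The cells were primary osteoblasts from the calvariae of newborn CD1 mice 2 to 5 days old. Undifferentiated cells (arrays C1 and C2) were compared with cells kept for 30 days in medium with ascorbic acid and β-glycerol phosphate (D1 and D2), and with cells kept in that medium with 100 nM cabozantinib for the 30 days (X1 and X2). Cabozantinib is an oral inhibitor of MET, VEGFR2 and other receptor tyrosine kinases. The labels name no genetic change in the mice and no interferon added to the cells. The sources used here do not say whether the 2 arrays of a group came from separate animals or cultures, so the p values measure only the spread between these arrays, which may be technical.

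Interferons are secreted proteins that bind receptors on the cell surface and act through the JAK kinases. Type I interferons act on promoters through the interferon-stimulated response element (ISRE), and interferon gamma through the gamma-activated site (GAS). The induced proteins block steps of viral replication, sense foreign nucleic acid and present antigen, and many of them are also made at a low level without infection. In bone, interferons are best known as brakes on osteoclast formation, and macrophages are strong responders and producers.

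The stretches of promoter that hold the core letters of the ISRE are shown for the 4 members that rose with differentiation and have such a match, followed by 2 members with matches that did not pass the test. The sequences are from RefSeq (GRCm38.p6), read 5′ to 3′ on the strand of the gene, and the capitals mark each match to GAAANNGAAA on either strand, overlapping matches included.
Ifit3 (chr19:34583348-34583441, + strand): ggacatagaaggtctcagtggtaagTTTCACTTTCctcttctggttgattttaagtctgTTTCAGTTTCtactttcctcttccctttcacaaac
Oas1a (chr5:120907526-120907570, - strand): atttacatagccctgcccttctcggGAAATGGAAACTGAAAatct
Rsad2 (chr12:26456538-26456597, - strand): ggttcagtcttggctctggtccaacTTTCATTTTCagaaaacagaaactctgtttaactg
Trim30a (chr7:104465195-104465254, - strand): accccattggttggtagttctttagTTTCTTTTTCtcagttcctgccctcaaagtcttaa
Isg15 (chr4:156200850-156200921, - strand): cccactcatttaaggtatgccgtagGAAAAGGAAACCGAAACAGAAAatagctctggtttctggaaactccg
Ifit1 (chr19:34640760-34640838, + strand): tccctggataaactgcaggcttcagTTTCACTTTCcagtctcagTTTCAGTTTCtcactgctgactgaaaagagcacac

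The first match begins 156 bases before the start site in Ifit3, 20 bases before it in Oas1a, 120 in Rsad2, 36 in Trim30a, 78 in Isg15 and 104 in Ifit1. Of the 29 members with a promoter sequence of 250 bases before to 50 after the start, 17 held the letters of the ISRE (58.6%), against 3.44% of the 32851 promoters of all genes. The letters of the GAS, TTCNNNGAA on either strand, were found in 7 members (24.1%), against 8.3% of all promoters. The 29 members had 34 promoter sequences, and a member counted if any of its own held the letters. In the share of all promoters each promoter counted by itself, so the units differ. The members were chosen as interferon-stimulated, so a share above that of all promoters describes the choice. The ISRE letters were present in 4 of the 6 members with a sequence that rose with differentiation, and in 11 of the 19 tested members with a sequence that did not. No match was found in these windows of Oasl1 and Oasl2.

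With 30 days in differentiation medium, 8 of the 31 members rose (25.8%), against 5.26% of all tested genes (limma, adjusted p under 0.05), and 1 fell (3.23%), against 4.45% of all genes. The 8 were Oasl1, Trim30a, Rsad2, Oas1a, Oasl2, Ifit3, Oas2 and Parp14, with changes from 2.44 to 4.36 on the log2 scale. Ifi35 fell. The median change of the 31 members was 1.04 on the log2 scale, against 0.11 over all genes, and 25 of the 31 were higher. These and the following levels are log2 signals relative to the 75th percentile of the array, so that 0 stands for the 75th percentile and a step of 1 for a 2-fold difference. Levels of single genes are compared only within a gene, and the summed signals of marker lists given further on weigh the brightest probes most.

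Of the 8 members that rose, 4 belong to the family of oligoadenylate synthetases (OAS), which make short adenylate chains that activate RNase L. Oasl1, a relative without this activity that is known to restrain translation of Irf7 mRNA, had the largest change. Its signal was -2.69 on C1, -3.93 on C2, 1.17 on D1, 0.94 on D2, -0.79 on X1 and -0.036 on X2. Every array of the differentiated group was above every array of the other groups, and the cabozantinib arrays lay between. Oasl1 was 20.6-fold higher in differentiated than in undifferentiated cells (log2 change 4.36 ± 0.58 SE, limma adjusted p = 0.0018).

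Oas1a, an active synthetase, gave 0.94 and -0.31 in undifferentiated cells, 3.24 and 3.21 in differentiated cells, and 2.56 and 3.16 with cabozantinib. The differentiated arrays did not overlap the undifferentiated ones, and the change was 7.51-fold (log2 2.91 ± 0.57 SE, limma adjusted p = 0.0106). A second and much dimmer Oas1a probe went from a mean of -5.76 up by 0.76, which did not pass the test (limma adjusted p = 0.462). The Oas1 genes are near-identical copies, so signal on an Oas1a probe may come in part from its neighbors.

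Oas2, which makes longer adenylate chains, went from -2.13 and -2.52 to 0.56 and -0.18, and was -0.24 and 0.014 with cabozantinib. Its rise was 5.73-fold (log2 2.52 ± 0.51 SE, limma adjusted p = 0.0122). Oasl2, an OAS-like protein with ubiquitin-like domains, went from 1.25 and 0.50 up to 4.13 and 3.38, with 2.80 and 3.34 under cabozantinib, and its rise was 7.38-fold (log2 2.88 ± 0.54 SE, limma adjusted p = 0.0084). Both had no overlap between undifferentiated arrays and the other 4. Oas3, the fifth family member tested, did not follow. It was dim, with -3.55 and -4.60 in undifferentiated cells, -4.69 and -5.17 in differentiated cells and -5.87 and -5.04 with cabozantinib, and only 1 array of each of the last 2 groups was well above background.

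Among the other antiviral effectors, Trim30a, a member of the TRIM family of ubiquitin ligases known to restrain NF-κB signaling, gave -1.73 and -1.53 in undifferentiated cells, 2.33 and 1.65 in differentiated cells, and 1.63 and 1.96 with cabozantinib. The undifferentiated arrays stood apart from all the others, with a 12.3-fold rise (log2 3.62 ± 0.51 SE, limma adjusted p = 0.0025). Trim30a has close relatives in a gene cluster, and its probe may also bind their transcripts. Rsad2 encodes viperin, an enzyme that makes a chain-terminating nucleotide. Its signal was -3.87 and -3.01 in undifferentiated cells, 0.58 and -1.22 in differentiated cells, and -0.69 and -0.61 with cabozantinib. The 2 differentiated arrays were far apart, but both were above the undifferentiated ones (8.69-fold, log2 3.12 ± 0.65 SE, limma adjusted p = 0.0146).

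Parp14, which adds single ADP-ribose units to proteins, went from 2.29 and 1.74 to 4.38 and 4.53, and was 3.49 and 3.85 with cabozantinib. It rose 5.43-fold (log2 2.44 ± 0.50 SE, limma adjusted p = 0.0138), with the 3 groups in separate ranges. Ifit3, a partner of the RNA-binding protein Ifit1, went from 0.65 and 0.50 to 3.53 and 2.74, and was 3.09 and 3.37 with cabozantinib. Its rise was 5.90-fold (log2 2.56 ± 0.51 SE, limma adjusted p = 0.0116), and the cabozantinib arrays fell within the range of the differentiated arrays.

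Ifi35, a leucine zipper protein also known to be released as a danger signal, moved against the rest. It was at -2.10 and -2.34 in undifferentiated cells, at -5.69 and -5.25 in differentiated cells, where neither array was well above background, and at -3.15 and -3.41 with cabozantinib. Set against the dimmest signals well above background, Ifi35 was at least 9.41-fold lower in differentiated than in undifferentiated cells (limma adjusted p = 0.0034). The 3 groups did not overlap.

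**Figure D1:**
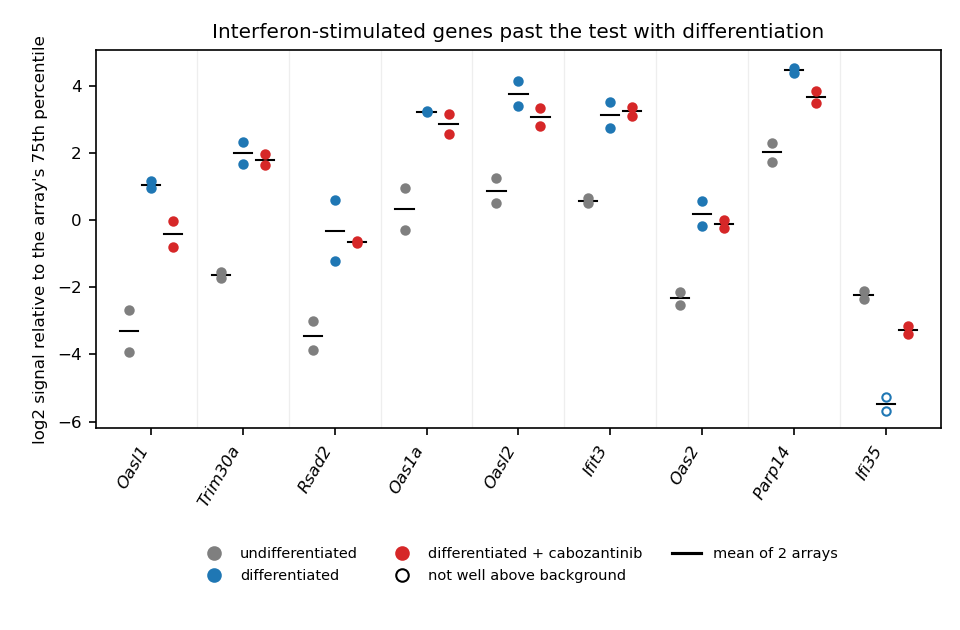
Signal of the 9 members that passed the test between differentiated and undifferentiated cells. The y axis is the log2 signal relative to the 75th percentile of the array, each point is 1 array, the bar is the mean of 2 arrays, and an open point was not well above background. For the first 8 genes both differentiated arrays lie above both undifferentiated arrays, and for Ifi35 they lie below. Heights are comparable within a gene only.

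The calls rested on few arrays. Without C2, Oasl1, Parp14 and Trim30a were the only members of the 8 that still passed, and without D1 only Oasl1, Oas1a and Trim30a did. Oasl1 and Trim30a passed without any 1 of the 6 arrays. Rsad2 was lost when arrays were quantile normalized or the authors' own values were used, and Oas2, Parp14 and Rsad2 with a normexp background correction, under which Ifi35 was also lost (adjusted p = 0.307).

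The remaining 22 tested members did not pass, and their changes ran from -1.74 to 1.93 on the log2 scale. Ifi44, an antiviral protein, had the highest of them. It was -2.31 and -2.24 in undifferentiated cells, 0.51 and -1.20 in differentiated cells, and -1.60 and -1.59 with cabozantinib (limma adjusted p = 0.0691). Gbp3, an interferon-induced GTPase, had close replicates, at 0.34 and 0.37, then 1.98 and 1.90, then 1.74 and 2.07, and a change of 1.59 ± 0.48 SE (limma adjusted p = 0.0729). Psmb9, a catalytic subunit of the immunoproteasome, went from -1.73 and -1.56 to -0.56 and -0.050 and was -0.051 and -0.29 with cabozantinib, with a change of 1.34 ± 0.50 SE (limma adjusted p = 0.141).

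Without the replicate number as a term, 12 members rose instead of 8, against 7.16% of all genes. The 4 added were Ifit1, Ifih1, Gbp3 and Psmb9. When C1 and C2 swapped replicate numbers in that term, an alternative added after seeing the data, 17 members passed and 6029 genes, against 9 members and 2242 genes. Ifih1, the sensor of long double-stranded RNA also called MDA5, was 1.5 and 0.86, then 2.75 and 2.62, then 2.17 and 2.5. Ifit1, which binds viral RNA that lacks a complete cap, was 0.031 and 0.18, then 1.53 and 1.18, then 0.74 and 0.68. For 19 of the 31 members both differentiated arrays were above both undifferentiated arrays (61.3%), against 25.9% of all genes, and for 4 members, Bst2, Ifi35, Oas3 and Xaf1, they were below (12.9%, against 19.4%).

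The modifier Isg15, a ubiquitin-like protein that is joined to other proteins or secreted, was among the members that did not pass the test. Its brighter probe was 2.52 and 1.55 in undifferentiated cells, 2.95 and 2.12 in differentiated cells, and 2.20 and 2.69 with cabozantinib, and its second probe gave a change of opposite sign (-0.88, against 0.50). Usp18, the protease that removes Isg15 and damps the type I receptor, was 0.84 and -0.29, then 1.87 and 1.27, then 0.96 and 1.61, without overlap between the first and second pair (change 1.29 ± 0.56 SE, limma adjusted p = 0.221).

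The transcription factors of the type I response had smaller changes. Stat2 was 3.59 and 3.10 in undifferentiated cells, 3.84 on both differentiated arrays, and 3.17 and 3.50 with cabozantinib. Irf9, its DNA-binding partner, was 3.03 and 2.38, then 3.51 and 3.48, then 3.0 and 3.08. Irf1, which also acts downstream of interferon gamma, overlapped between all groups. The changes with differentiation were 0.49 for Stat2, 0.79 for Irf9 and 0.61 for Irf1, and none of these passed the test.

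Of the nucleic acid sensors, Ddx58 (RIG-I), which reads short RNA with a triphosphate end, changed by 0.33 and Zbp1, which binds Z-form nucleic acid, by 0.51, and Ifi204, a DNA-binding protein of the Ifi200 family, by 1.11. Of the other interferon-induced GTPases, Igtp changed by 1.04, Irgm1 by 0.78, Iigp1 by 0.32 and Gbp2 by 0.067. Gbp2 was the only one of these whose direction turned with quantile normalization (-0.074). Psmb8 and Bst2, the membrane tether of budding virus, changed by -0.12 and -0.31, and none of these 9 genes passed the test.

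Probes of the same gene disagreed for Xaf1 and Irgm1 as well. Xaf1, a proapoptotic antagonist of XIAP, went from -0.41 and 0.37 to -1.18 and -2.33 at its brighter probe, a change of -1.74 ± 0.57 SE (limma adjusted p = 0.0973), while the dimmer probe rose by 1.35. The second Irgm1 probe and the single Ifit2 probe were well above background on C2 and X1 only. Ifit2 read -3.05 on C2 and -2.73 on X1 and between -5.49 and -6.36 on the other 4 arrays, so its group means describe single arrays. The second probes of Ddx58, Iigp1 and Irf1 changed by 0.54, 1.1 and 0.88 with differentiation, in the direction of the brighter probes, and the second probes of Ifih1 and Zbp1 were too dim to be tested. The second Irf1 probe was at least 1.37-fold lower with cabozantinib, where it was not well above background (limma adjusted p = 0.0559).

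**Figure D2:**
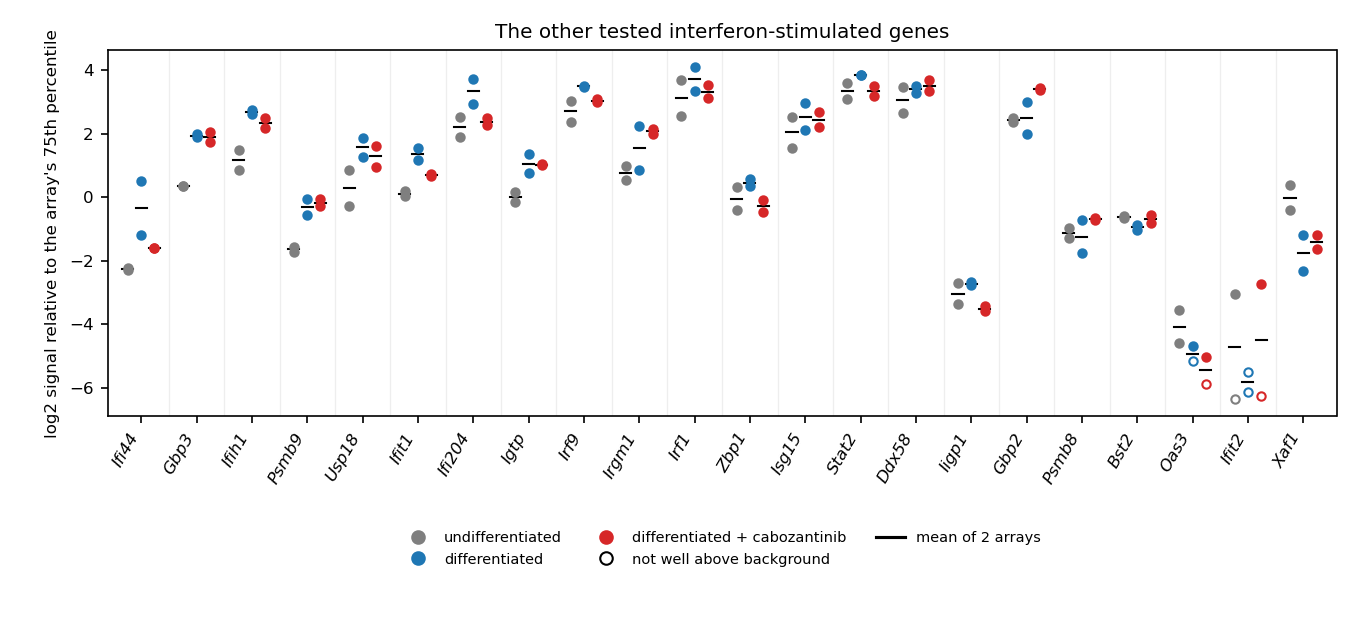
Signal of the 22 members that were tested and did not pass between differentiated and undifferentiated cells, ordered by their change. The axes and symbols are as in the plot of the members that passed. Gbp3, Ifih1 and Psmb9 show separate undifferentiated and differentiated arrays, while Irf1, Ddx58 and Isg15 overlap, and Ifit2 is well above background on 1 array each of the undifferentiated and cabozantinib groups.

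Cabozantinib was then compared with differentiation alone. No member passed the test in either direction with limma (0 of 31), against 0.121% of all genes that rose and 2.55% that fell. At an unadjusted p under 0.05 limma counted 2 members (6.45%), Ifi35 higher and Oasl1 lower, against 23.4% of all genes. The paired test of the methods counted 0 members and 3847 genes at that level. An unpaired form of it counted 3 members and 4897 genes, and neither had any after adjustment. When C1 and C2 swapped replicate numbers in the replicate term, 3 members passed, Ifi35 higher and Oasl1 and Ifi204 lower, and 7062 genes, against 616. The median change of the members was -0.30, against -0.29 over all genes, so relative to the median gene it was -0.018, and 15 of the 31 members were above the median gene. Without X1 the median of the members turned to 0.069, and without X2 1 member passed, Ifit2, which was well above background on X1 and not on X2.

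Ifi35 came closest to the threshold. It was at least 4.53-fold higher with cabozantinib than in differentiated cells (limma adjusted p = 0.0505), and still below undifferentiated cells on every array. It passed in 4 of 15 distinct alternative fits, among them the fit without the replicate term (adjusted p = 0.0231), and the adjusted p ranged from 0.0044 to 0.999. Oasl1 was lower by 1.47 ± 0.58 SE on the log2 scale (95% interval -2.76 to -0.18, limma adjusted p = 0.161) and passed in 1 of 16 distinct alternative fits, over which the adjusted p started at 0.0275.

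Both cabozantinib arrays were below both differentiated arrays for 12 members (38.7%), against 44.2% of all genes. These were Oasl1 and Oasl2, with changes of -1.47 and -0.69, Ifi44 (-1.25), Ifi204 (-0.96), Parp14 (-0.79), Iigp1 (-0.79), Zbp1 (-0.73), Ifit1 (-0.65), Stat2 (-0.50), Irf9 (-0.45), Oas1a (-0.37) and Ifih1 (-0.35). Both were above for 4 members (12.9%), against 13.4% of all genes, and these were Ifi35 (2.19), Gbp2 (0.91), Psmb8 (0.56) and Bst2 (0.26). Both shares were close to those of all genes.

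Of the other 4 members that rose with differentiation, Ifit3 changed by 0.10 with cabozantinib (95% interval -1.05 to 1.24), Trim30a by -0.20 (-1.34 to 0.95), Oas2 by -0.30 (-1.44 to 0.83) and Rsad2 by -0.33 (-1.79 to 1.13). The intervals leave room for a 2-fold change in either direction for each of them except for a rise of that size in Trim30a and Oas2. The narrowest interval among the 31 members reached 1.08 log2 units to each side of its change. No interval could therefore lie within 1 log2 unit of 0 on both sides, whatever the change. The data do not show that any member was the same with and without the drug. The 11 members not yet given for this comparison changed by -0.53 to 1.32, 5 of them upward, and none passed.

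**Figure D3:**
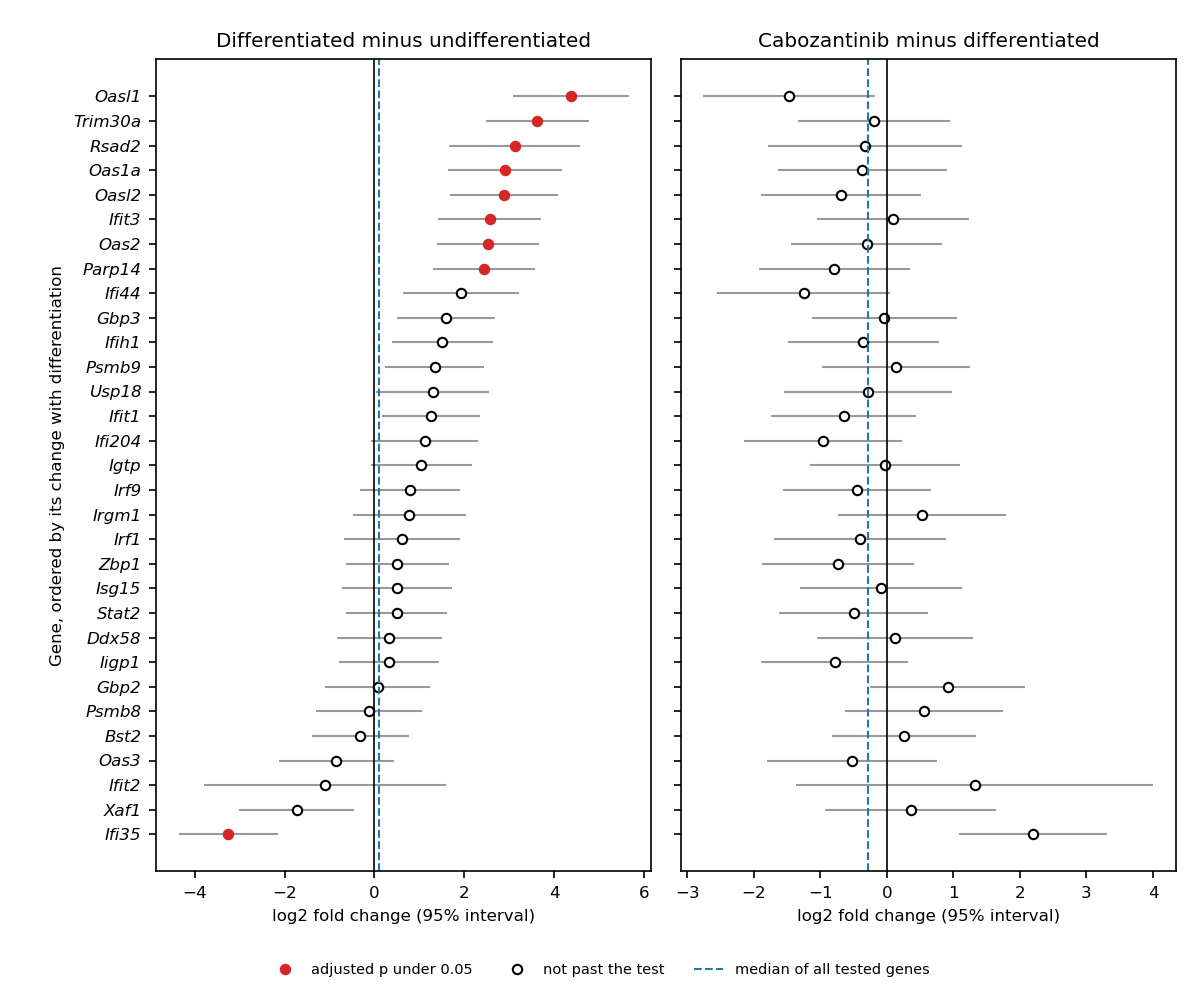
Change of each of the 31 tested members with differentiation (left) and with cabozantinib added to differentiation (right), as log2 fold change with its 95% interval from limma. Red points passed an adjusted p of 0.05, and the dashed line is the median over all tested genes. On the left 8 members passed above 0 and Ifi35 below it, and on the right no member passed. The panels share the differentiated arrays and are not independent.

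Set against undifferentiated cells, the cabozantinib group had 7 members higher (22.6%, against 4.67% of all genes) and none lower (0 of 31, against 8.7%). At an unadjusted p under 0.05, 12 were higher and 2 lower, against 8.11% and 23.4% of all genes. The 7 were Trim30a, with a change of 3.42 ± 0.51 SE (limma adjusted p = 0.0042), Oasl1 (2.90), Rsad2 (2.79), Ifit3 (2.66), Oas1a (2.54), Oas2 (2.21) and Oasl2 (2.19). Parp14, the eighth member that rose with differentiation, changed by 1.65 (limma adjusted p = 0.0567). Without X2 the count was 1, Trim30a. This comparison shares its arrays with the other 2 and adds no independent evidence.

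The scans limit what can be said of the drug. The undifferentiated and differentiated arrays were scanned together and the cabozantinib arrays in another scan, so scan and drug cannot be told apart. On the differentiated arrays 22 of 31 members were higher on D1 than on D2, by a median of 0.35, while over all genes D1 was lower by a median of 0.31. On the cabozantinib arrays X1 was lower than X2 by a median of 0.21 over all genes, and 9 of 31 members were higher on X1. The 8 members that rose were all lower on X1 than on X2, by 0.07 to 0.75.

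The genes upstream of the response were read from the same fit, and the counts of each list stand beside the 5.26% of all genes that rose and the 4.45% that fell with differentiation. Of 11 interferon genes tested, among them 8 interferon alpha genes and Ifng, none changed with differentiation or cabozantinib by limma's adjusted p. At an unadjusted p under 0.05, 0 of them differed with differentiation, against 20.2% of all genes. With cabozantinib 1 was higher (Ifng) and 2 were lower, against 2.71% and 20.7% of all genes. Ifnb1 was not well above background on any array. Ifng was well above background on C2 and X2 only, with a signal between -5.22 and -6.58 on all arrays. It was at least 1.56-fold higher with cabozantinib than in differentiated cells, with 1 of the 2 cabozantinib arrays well above background (limma adjusted p = 0.154). It passed without the replicate term (adjusted p = 0.0488) and on the 4 arrays of the comparison (adjusted p = 0.0329). On those 4 arrays Ifna11 (at least 2.34-fold), Ifna7 (change -1.41) and Ifna5 (-0.97) passed as lower (limma adjusted p from 0.030 to 0.049). Of all 23082 genes, 4895 passed as lower there. The median change of the 11 interferon genes with cabozantinib was -0.88, against -0.29 over all genes. The probes of interferon alpha genes may bind each other's transcripts, since the genes are near-identical copies.

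Of 11 receptor and proximal signaling genes, 1 rose with differentiation, Il10rb, a subunit shared by the receptors for interleukin-10 and the lambda interferons (change 2.07 ± 0.52 SE, limma adjusted p = 0.0331). The receptor subunits Ifnar1, Ifnar2, Ifngr1 and Ifngr2 changed by 0.87, 0.69, 1.28 and 0.33 and did not pass. Jak1 changed by -0.49 and Tyk2 by -1.11. None of the 11 passed with cabozantinib, also at an unadjusted p under 0.05 (0 of 11, against 23.4% of all genes).

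Of 7 negative regulators 1 fell with differentiation, the phosphatase Ptpn1 (change -3.07, well above background on D2 but not on D1, limma adjusted p = 0.0092), while Socs1 changed by -0.49. The second Ptpn1 probe changed by 0.29 (limma adjusted p = 0.906). Of 17 sensors and adaptors 3 rose (17.6%, against 5.26% of all genes) and 1 fell (5.88%, against 4.45%). Those that rose were Irf8, a factor of the macrophage lineage (3.09), the endosomal RNA receptor Tlr7 (2.94) and the DNA sensor Aim2 (2.92), all with limma adjusted p from 0.0042 to 0.0090. Ticam1, an adaptor of Tlr3 and Tlr4, was at least 5.26-fold lower in differentiated cells, where it was not well above background (limma adjusted p = 0.0161), and Irf3 changed by 0.63.

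In a second list of 43 tested interferon-induced genes, 7 rose with differentiation (16.3%, against 5.26% of all genes) and none fell (against 4.45%). One of the 7, Oas1g, was well above background on the differentiated arrays only, so it entered the test through the group in which it was high, and without it 6 of 42 rose. At an unadjusted p under 0.05, 13 were higher and 1 lower, against 10.5% and 9.79% of all genes. Ifi27l2a went from 2.03 and 1.11 to 5.30 and 5.31 and was 4.67 and 5.17 with cabozantinib (change with differentiation 3.73, limma adjusted p = 0.0026). Ifi47, a GTPase of the same family as Igtp, went from -0.40 and -0.78 to 2.71 and 2.80 and was 1.99 and 2.26 with cabozantinib (change 3.35, limma adjusted p = 0.0029). Gbp4 rose by 4.22 ± 0.58 SE (limma adjusted p = 0.0022), Oas1g was at least 1.85-fold higher since it was not well above background in undifferentiated cells, and the chemokine Cxcl10 changed by 1.04 (limma adjusted p = 0.380). None of the 43 passed with cabozantinib. At an unadjusted p under 0.05, 3 were lower and 0 higher, against 20.7% and 2.71% of all genes.

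Markers of macrophages rose with the same comparison. Of 11 tested, 6 were higher in differentiated cells (54.5%, against 5.26% of all genes) and none lower. At an unadjusted p under 0.05, 9 were higher and 0 lower, against 10.5% and 9.79% of all genes. Both undifferentiated arrays detected 9 of the 11 above background, and both differentiated arrays 11. Mrc1, the mannose receptor, changed by 5.31 (limma adjusted p = 5.0e-04), Adgre1, a surface receptor of mature macrophages, by 4.04, Aif1 by 3.70 and Fcer1g by 3.13. The summed linear signal of the list, in multiples of the 75th percentile, was 37.6 to 63.3 in undifferentiated cells, 385 to 492 in differentiated cells and 346 to 419 with cabozantinib. The part of the macrophage markers in the rise of the interferon-stimulated genes was not tested, and in RNA of whole cultures more cells of a type and more RNA per cell cannot be told apart.

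**Figure D4:**
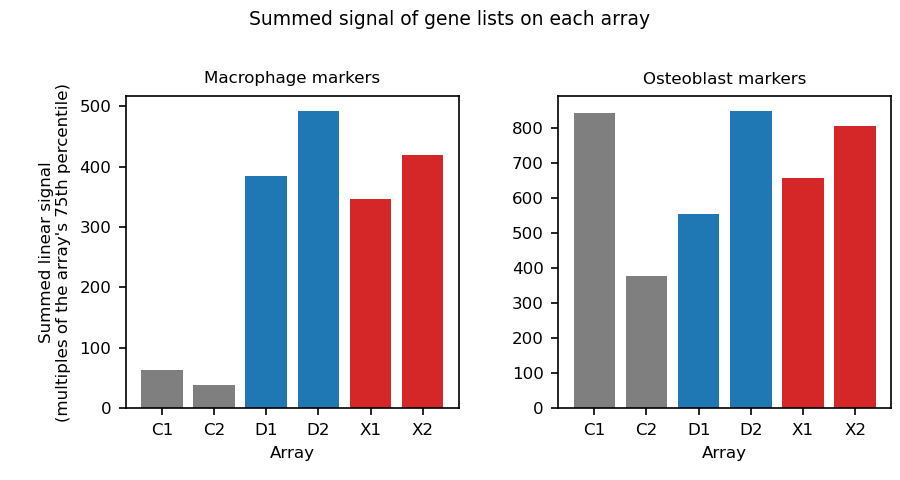
Summed linear signal on each array, in multiples of the 75th percentile of that array, for 11 macrophage markers and 11 osteoblast markers. The brightest probes weigh most in a sum. Bars start at 0 and each bar is 1 array (C undifferentiated, D differentiated, X differentiated with cabozantinib). The macrophage markers are higher on all D and X arrays than on both C arrays, and the osteoblast markers overlap between the groups.

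Osteoblast markers were detected well above background for 11 of 11 genes in undifferentiated cells and for 9 of 11 in each of the other groups, with sums of 377 to 844, 556 to 850 and 657 to 806, and with 4 genes higher and 1 lower in differentiated cells. Osteoclast markers (7 tested, 2 higher with differentiation, 6 well above background in each group) summed to 34.8 to 55.8, 124 to 181 and 112 to 139, and adipocyte markers (5 tested, 3 higher, well above background for 3, 4 and 3) to 1.5 to 1.99, 23.7 to 49.7 and 8.07 to 8.19. Lymphoid markers (6 tested, none called with differentiation, well above background for 6, 5 and 4) summed to 5.38 to 6.42, 7.64 to 9.73 and 5.04 to 6.52. Markers of plasmacytoid dendritic cells, the strongest producers of type I interferon, had 3 tested genes, of which 2 were well above background in each group and none was called, and summed to 3.38 to 5.18, 5.46 to 10.8 and 2.69 to 3.32. Siglech, another of these markers, is not in the sums, since its brighter probe was an outlier spot on D1 and D2 and was not tested. That probe read 5.60 and 4.04 in undifferentiated cells and 5.05 and 5.45 with cabozantinib. Endothelial markers (3 tested, 1 higher, well above background for 2, 3 and 3) summed to 0.287 to 0.293, 0.542 to 0.572 and 0.361 to 0.411. Between cabozantinib and differentiated cells the calls in these lists were Cdh5, an endothelial cadherin, and Cfd, an adipocyte protease, both lower. They were 1 of 3 endothelial and 1 of 5 adipocyte markers, against 2.55% of all genes that fell. The 11 osteoblast, 11 macrophage, 7 osteoclast, 6 lymphoid and 3 plasmacytoid dendritic cell markers had no call. With quantile normalization or the authors' values 0 of all genes passed in this comparison.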

How the data were processed

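Total RNA of 6 samples was labeled with 1 dye and hybridized to Agilent whole mouse genome arrays. The deposited scanner files hold linear intensity values, which, per the file headers, Feature Extraction 11.0.1.1 had background-subtracted and detrended. A deposited table of log2 values of 30439 probes, made by the authors in steps that are not given in the sources used here, served as an alternative. It tracked the scanner values on every array (r of at least 0.998), with medians that differ by at most 0.0018 between arrays.

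Control and outlier spots were removed, spots with the same probe were averaged as log2 intensities, and each array was shifted by its 75th percentile over probes. Probes were named through RefSeq accessions (69.1% of 39429 probes), and 27229 probes were kept that the scanner software called well above background on 2 or more of the 6 arrays. Groups were compared with limma 3.58.1 (R 4.3.3) on all 6 arrays, with condition and replicate number as terms, since the statistics section of the study names a paired test, and Benjamini-Hochberg adjustment over all probes tested. The brightest probe on average stood for its gene. Intervals are 95% intervals on 2 residual and 7.68 pooled degrees of freedom. A fold is given as a bound where a group had no array with the probe well above background, from the dimmest signal well above background or the probe's own signal, whichever was higher.

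Every member with a probe is named. From the other lists, the genes set to be named are given, except 1 that is not reported here, and up to 4 genes per list and comparison with the largest change among those past the test and with the same direction in both replicate pairs. Ptpn1's second probe and Siglech were added after their values were seen. The members, lists and tests were chosen with earlier results of these data known. Replicate differences correlated at -0.506 and -0.527 between undifferentiated and other arrays and at 0.265 between differentiated and cabozantinib arrays. The linear 75th percentile was higher on C2 than on C1 (1773 against 625). It was higher on D1 than on D2 (1095 against 649) and on X1 than on X2 (1277 against 961). Whether the numbers pair the samples was not tested and cannot be told from these values.

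Alternatives were quantile normalization, the authors' values, normexp (offset 50, on median signals, since mean signals were not used here), other filters on dim probes, no replicate term, the 4 arrays of a comparison, the mean of a gene's probes, the paired test of the methods and an unpaired form of it, and each array left out. A 75th percentile over spots and exchanged numbers of the undifferentiated arrays were added after seeing the data. A scan term could not be fitted. The fit was tested on simulated data with known changes. Between 58.8% and 72.9% of spots were well above background and none was saturated. The number of arrays limits the precision. Tables were made with Python 3.11.15 and pandas 2.3.3, figures with matplotlib 3.10.9.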

Additional observations from a re-analysis of the deposited data

How the results depend on the processing

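Of the 16 distinct alternative fits, all 8 members that rose with differentiation passed under 7. Fits that change only the replicate block, the test or the filter on dim probes left the changes of these 8 as they were. The fit on the 4 arrays of the comparison did so too. Direction could therefore not turn in those fits. In the fits that alter the changes all 8 stayed above 0, the lowest at 1.83 with the mean of the probes of a gene. Leaving out an array of the group that is not compared gives the fit on the 4 arrays of the comparison and is counted with it. With quantile normalization, 0 genes passed between cabozantinib and differentiated cells and 1312 (72.2% of them higher, against 35.0%) between cabozantinib and undifferentiated cells, with 4 members and a member median of 0.92 for the latter. With the authors' deposited values these were 0, 1299, 4 and 0.92. Gbp2 turned to -0.074 and -0.077 with differentiation under these 2 settings. The normexp correction gave 633 genes, 5 members and a median of 0.91 for differentiation, 0 genes for cabozantinib against differentiated cells, and 425 genes and 1 member for cabozantinib against undifferentiated cells. Without a filter on dim probes, the counts were 1403 genes (median of members 0.79), 0 genes, and 1163 genes with 3 members. With probes well above background on all 6 arrays, the member medians were 1.18 with differentiation and 0.99 for cabozantinib against undifferentiated cells, and 2 and 1350 genes passed in the cabozantinib comparisons. With the mean of the probes of a gene, Isg15 turned to -0.19 and Irgm1 to -0.91 with differentiation, and 1106 genes and 1 member (Ifi35) passed between cabozantinib and differentiated cells. On the 4 arrays of that comparison 5543 genes and 1 member passed, and with the percentile taken over spots 1 gene.

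Without the replicate block, 2948 genes and 1 member passed between cabozantinib and differentiated cells and 5572 genes between cabozantinib and undifferentiated cells. Whether the numbers of the undifferentiated arrays are crossed was not tested. With them exchanged in the block, 6029 genes and 17 members passed with differentiation. Between cabozantinib and differentiated cells 7062 genes and 3 members passed (Ifi35 higher, Oasl1 and Ifi204 lower). Between cabozantinib and undifferentiated cells 10304 genes and 17 members passed. The paired test of the methods gave 0 genes and 0 members in each comparison after adjustment, and an unpaired form of it 0, 0 and 1 genes and 0 members.

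With each array left out in turn, 1347 to 4399 genes and 4 to 11 members passed with differentiation (median of members 0.92 to 1.43), 41 to 5543 genes and 0 to 1 members between cabozantinib and differentiated cells (-0.67 to 0.069), and 692 to 8503 genes and 1 to 8 members between cabozantinib and undifferentiated cells (0.59 to 1.1). The change with differentiation ran from -0.22 to 0.87 for Ddx58, -0.48 to 0.62 for Gbp2, -3.80 to 1.59 for Ifit2, -0.24 to 1.45 for Irf1 and -0.71 to 0.46 for Psmb8. The change with cabozantinib ran from -0.71 to 0.0009 for Ifih1, -0.33 to 0.52 for Ifit3, -0.99 to 0.25 for Oas1a, -0.71 to 0.10 for Oas2, -0.023 to 1.15 for Psmb8, -1.47 to 0.81 for Rsad2 and -0.67 to 0.27 for Trim30a. The cause of these shifts was not tested. Genes near background, such as Oas3 and Ifit2, have no firm level.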
